A study of Rattus norvegicus with 19 samples.

Results

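The related transcription factor genes Neurod1, Neurod2, Neurod6, Neurog2, Bhlhe22 and Nhlh1 were followed in cultured rat neurons together with the enhancer RNA measured around them. They were chosen by name, all 6 are among the 17715 gene symbols of the deposited table, and 208 of its 388605 element-gene pairs belong to them. Each element, a transcriptionally active putative enhancer (TAPE), is accessible chromatin that the authors selected as lying between genes and giving RNA from both strands. Of 27538 TAPEs, 208 had a centre up to 1 Mb from the start of 1 of the 6 genes, and no TAPE was shared between them. The comparison of interest was cortex and hippocampus, the pallial regions, with striatum, which is subpallial.

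Total RNA was sequenced from primary neuron cultures of Sprague-Dawley rat embryos, taken at embryonic day 18 from cortex, hippocampus or striatum, with no transgene or deletion named. At 11 days in vitro they received Neurobasal medium as vehicle, or potassium chloride (KCl) to depolarize the neurons, for 1 h. There were 19 libraries, 4 from striatum with vehicle and 3 from every other combination of region and treatment. The libraries are called biological samples, each with a replicate number, but separate litters or culture days are not given, so p-values measure the spread between these libraries, which may be technical. The study's supplementary methods give the striatum numbers the other way round, with the additional library under KCl, and the sample labels and series text were followed. Labels disagree on 2 points that touch these results. Sample labels give KCl as 25 mM where the series text has 10 mM. The title of cortex vehicle replicate 3, which was followed, says cortex, and its tissue label says striatal. The library held 5831 Neurod6 reads, against 3981 to 7007 over all 6 cortex libraries and 0 to 7 in striatum. Library totals ran from 46.4 to 72.5 M reads.

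The 6 genes encode basic helix-loop-helix (bHLH) factors, which bind the E-box, a short DNA motif, as dimers with E proteins such as Tcf4. In the embryonic pallium the proneural factor Neurog2 acts in dividing progenitors and switches on Neurod genes, which continue in the glutamatergic neurons those progenitors produce. Bhlhe22 is a repressor that acts in newly formed pallial neurons, and Nhlh1 is a marker of young neurons. Striatal projection neurons are GABAergic and arise from the subpallium, where other factors such as the Dlx genes take the leading role.

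The promoters of 5 of the 6 genes were matched by symbol in RefSeq (assembly GRCr8), and the 250 bases before the start were searched for E-boxes linked to this family, CAGATG (read as CATCTG on the other strand) and CATATG, which reads the same on both strands. Both are forms of the general E-box CANNTG. At least 1 was found in Neurod2, Neurod6 and Nhlh1, against 16.9% of all 33469 promoter windows, and none in Neurod1 or Neurog2. CAGATG on either strand was in 3 of the 5 and in 13.96% of all windows, and CATATG in 1 of the 5 and 3.63% of all. CANNTG was in 4 of the 5 and in 65.5% of all. The 3 sequences with a match are shown, 5′ to 3′ on the gene's strand, with the matched letters in capitals.
Neurod6 (GRCr8, chr4:86180156-86180405, minus strand): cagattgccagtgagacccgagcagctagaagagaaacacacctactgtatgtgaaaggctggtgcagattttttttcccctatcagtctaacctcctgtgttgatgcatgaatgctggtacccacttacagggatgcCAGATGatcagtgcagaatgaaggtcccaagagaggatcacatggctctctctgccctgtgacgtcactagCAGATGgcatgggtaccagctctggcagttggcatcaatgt
Neurod2 (GRCr8, chr10:83824278-83824527, minus strand): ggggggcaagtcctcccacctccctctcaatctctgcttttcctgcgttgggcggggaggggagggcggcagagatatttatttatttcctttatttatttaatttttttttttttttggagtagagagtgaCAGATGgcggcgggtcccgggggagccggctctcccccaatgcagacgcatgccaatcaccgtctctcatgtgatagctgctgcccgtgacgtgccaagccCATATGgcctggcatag
Nhlh1 (GRCr8, chr13:87054935-87055184, minus strand): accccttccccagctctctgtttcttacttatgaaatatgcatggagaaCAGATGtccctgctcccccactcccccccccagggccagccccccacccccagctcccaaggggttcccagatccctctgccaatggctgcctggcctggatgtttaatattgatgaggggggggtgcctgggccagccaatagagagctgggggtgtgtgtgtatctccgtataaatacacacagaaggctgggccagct
In Neurod6 the matches start at positions -112 and -41 from the gene start, and both are CAGATG. In Neurod2 CAGATG starts at -118 and CATATG at -17, and in Nhlh1 CAGATG starts at -201. A match of letters is a description of the sequence and not a bound site. Bhlhe22 was not matched.

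The deposited table gives TAPE values per library but gene values only through their correlations with TAPEs, so the gene reads were recovered from those correlations. Whole-number read counts were found for 16733 genes, and for the 6 genes they returned all 722 deposited correlations to within 7.21e-07. A gene level is given as CPM, recovered reads per 1 M library reads, which is not divided by gene length, so levels are compared between libraries and not between genes. A common multiple of all counts of a gene would return the same correlations. That would leave the ratios and the permutation tests as they are, but not the exact intervals of the ratios or the limma and voom values. Of the counts above 0, 60 of 98 for the 6 genes (61.2%) and 73.8% over all TAPEs were even. The intervals treat every read as independent and are too narrow if both mates of a read pair were counted, which was not tested.

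All 6 genes were higher in pallial than in striatal cultures, and each was under 1 CPM in every striatum library. By a two-sided exact permutation test of the 12 pallial against the 7 striatal libraries, with Benjamini-Hochberg adjustment over 16733 genes, 6 of 6 passed an adjusted p of 0.05, all higher in pallium. Over all genes 25.8% were higher in pallium and 27.1% higher in striatum by the same rule, so a call in one direction is common in this comparison, and the size of the difference is given for each gene. In bulk cultures, fewer cells of a type and less RNA per cell cannot be told apart.

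Neurog2, the proneural factor of pallial progenitors (Rn6 chromosome 2, 231962517 to 231963308, plus strand), was read at low levels. It had 23 to 66 reads in cortex libraries (median 35), 34 to 58 in hippocampus (median 45) and 0 to 3 in striatum (median 2). No striatum library reached the lowest pallial library, and 3 of the 7 had no read. The level was 0.612 ± 0.156 CPM in cortex (SD, n = 6), 0.792 ± 0.144 in hippocampus (n = 6) and 0.0231 ± 0.0231 in striatum (n = 7). The ratio of pooled CPM was 26.5 for cortex to striatum (95% exact interval 13.7 to 58.6) and 33.6 for hippocampus to striatum (17.4 to 74.2), intervals that cover counting error only. The adjusted exact permutation p of pallium against striatum was 0.000101, the smallest this test gave.

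Neurod1, which Neurog2 is known to activate and which is needed for granule neurons of the dentate gyrus (Rn6 chromosome 3, 66414308 to 66417741, minus strand), was led by hippocampus. Reads ran from 562 to 950 in cortex (median 712), from 2536 to 3175 in hippocampus (median 2864) and from 0 to 4 in striatum (median 0). The 3 regions did not overlap, and 5 of 7 striatum libraries had no Neurod1 read. The level was 11.6 ± 0.908 CPM in cortex, 49.9 ± 3.20 in hippocampus and 0.0153 ± 0.0279 in striatum. Pooled CPM was 740-fold higher in cortex than in striatum (95% exact interval 340 to 2018) and 3179-fold higher in hippocampus (1460 to 8664), both resting on 6 striatal reads. The adjusted exact permutation p was 0.00334.

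Neurod2 and Neurod6 are the Neurod members that persist in mature cortical and hippocampal pyramidal neurons. Neurod2 (Rn6 chromosome 10, 86280892 to 86282693, minus strand) had 2316 to 3334 reads in cortex (median 2566), 1737 to 2413 in hippocampus (median 2045) and 12 to 23 in striatum (median 19), so every striatum library held some Neurod2 RNA. Its level was 42.8 ± 6.66 CPM in cortex, 36.0 ± 2.99 in hippocampus and 0.339 ± 0.0939 in striatum. Pooled CPM was 126-fold higher in cortex than striatum (95% exact interval 106 to 151) and 108-fold higher in hippocampus (90.4 to 129).

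Neurod6 (Rn6 chromosome 4, 85911861 to 85915099, minus strand) had 3981 to 7007 reads in cortex (median 6045.5), 4292 to 4904 in hippocampus (median 4728.5) and 0 to 7 in striatum (median 3). No striatum library came near the pallial ones, and 2 of 7 had no Neurod6 read. The level was 94.2 ± 6.34 CPM in cortex, 81.7 ± 4.43 in hippocampus and 0.0667 ± 0.0529 in striatum. Pooled CPM was 1443-fold higher in cortex than striatum (95% exact interval 977 to 2230) and 1247-fold higher in hippocampus (844 to 1927). For Neurod2 and for Neurod6 the adjusted exact permutation p of pallium against striatum was 0.000101.

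Bhlhe22, the repressor (Rn6 chromosome 2, 102685513 to 102688624, plus strand), had 10069 to 16073 reads in cortex (median 13445.5), 12137 to 15288 in hippocampus (median 13157) and 8 to 26 in striatum (median 24). The level was 214 ± 7.92 CPM in cortex, 231 ± 15.4 in hippocampus and 0.389 ± 0.129 in striatum. The striatum libraries lay far below every pallial one. Pooled CPM was 556-fold higher in cortex than striatum (95% exact interval 473 to 659) and 601-fold higher in hippocampus (512 to 712), with an adjusted exact permutation p of 0.000101.

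Nhlh1, the marker of young neurons (Rn6 chromosome 13, 90437956 to 90443157, minus strand), differed from the other 5. Only hippocampus held it at a level clear of the other regions, with 39 to 62 reads per library (median 42), against 0 to 8 in cortex (median 2) and 0 to 2 in striatum (median 0). The level was 0.804 ± 0.139 CPM in hippocampus, 0.0471 ± 0.0409 in cortex and 0.0104 ± 0.0178 in striatum. Hippocampus did not overlap with either other region, while cortex and striatum overlapped. Pooled CPM was 76.9-fold higher in hippocampus than striatum (95% exact interval 29.7 to 284) and 16.9-fold higher in hippocampus than cortex (10.47 to 28.9). The 18 cortical and 4 striatal reads gave a ratio of 4.56 (1.503 to 18.5) between those regions. The pallial call of Nhlh1 (adjusted exact permutation p = 0.0223) was lost without hippocampus vehicle replicates 1, 2 or 3, or KCl replicates 1 or 2, each in turn (adjusted p = 0.0513 to 0.0568).

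**Figure D1:**
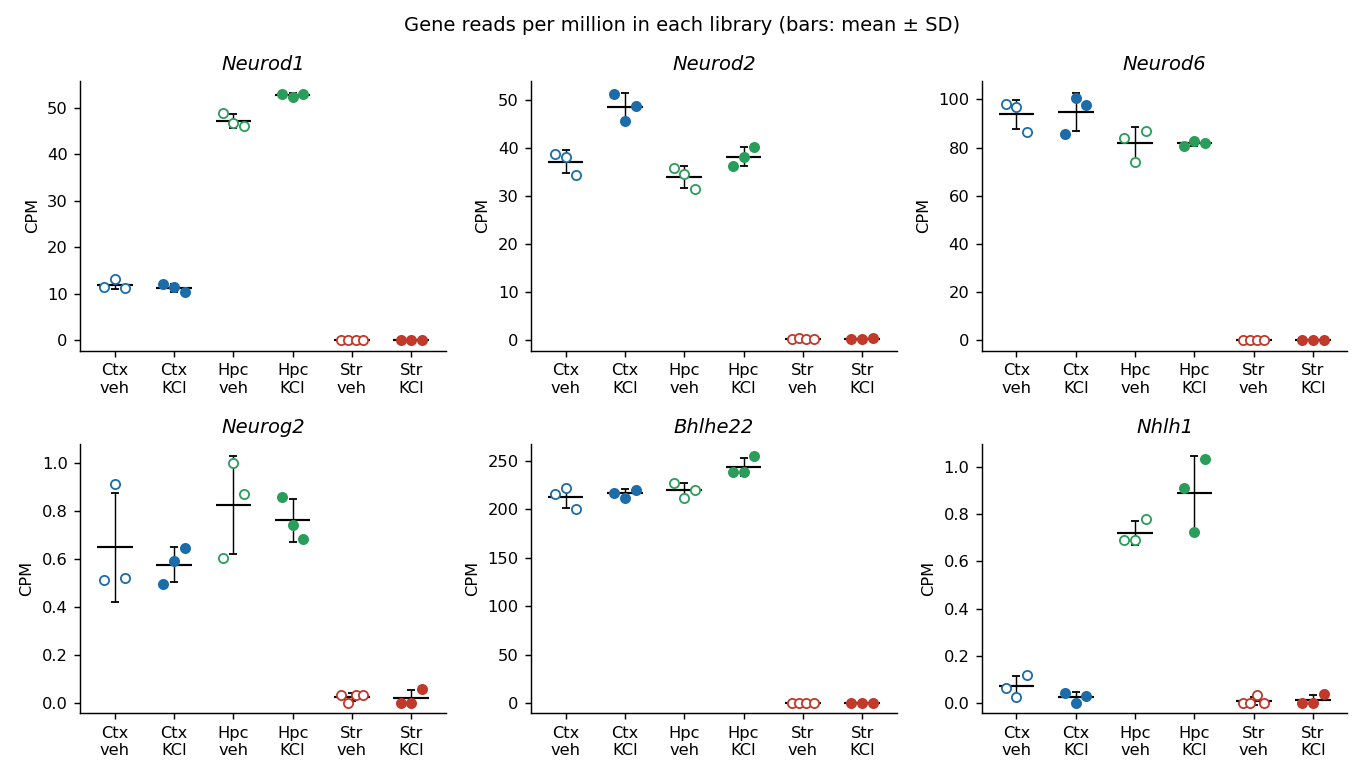
Gene reads per 1 M library reads (CPM, linear axis) of the 6 genes in each library, by region (Ctx cortex, Hpc hippocampus, Str striatum) and treatment, with open points for vehicle and filled points for KCl, and bars for the mean ± SD of each group. Striatum sits near 0 in every panel, hippocampus stands above cortex for Neurod1 and Nhlh1, and cortex vehicle replicate 2 is the high Neurog2 point at 0.910 CPM.

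Tested separately with the same method, 5 of 6 genes were higher in cortex than in striatum (26.6% of all genes), and Nhlh1 did not pass (adjusted exact permutation p = 0.0871), although it did by limma (adjusted p = 0.0366) and voom (adjusted p = 0.0452) on the recovered reads. All 6 were higher in hippocampus than in striatum (30% of all genes). These comparisons share the striatum libraries. The smallest p that 6 against 7 libraries can give is 5.83e-04.

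Between the pallial regions, 3 of 6 genes passed in cortex against hippocampus, where 41.6% of all genes passed in either direction. Neurod1 was 4.29-fold higher in hippocampus by pooled CPM (95% exact interval 4.15 to 4.44) and Nhlh1 was higher there as given above, each with an adjusted exact permutation p of 0.00765. Neurod6 was lower in hippocampus, at a ratio of 0.864 to cortex (0.850 to 0.878, adjusted exact permutation p = 0.0188). For Neurod6 the log2 difference of cortex from hippocampus was 0.20 (SE 0.25), which did not pass by limma (adjusted p = 0.510) but did with voom (adjusted p = 0.00129). The hippocampus to cortex ratio was 0.853 for Neurod2 (0.834 to 0.874, adjusted exact permutation p = 0.114), 1.27 for Neurog2 (1.06 to 1.52, p = 0.132) and 1.08 for Bhlhe22 (1.07 to 1.09, p = 0.0878). Counting intervals are narrower than the spread between libraries. These 3 ratios did not pass the permutation test or limma (adjusted p = 0.168 to 0.620), while voom called Neurod2 (adjusted p = 0.0189) and Bhlhe22 (adjusted p = 0.0217). The limma spread of a gene is shared by all 19 libraries, with striatum near 0, so it is not the spread of the pallial libraries alone. Its SE was 0.25 for Neurod6, 0.17 for Bhlhe22, 0.14 for Neurod2 and 0.23 for Neurog2. With voom it was 0.05, 0.04, 0.08 and 0.20.

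Ordered over the 6 groups of region and treatment, Neurod1 ran from hippocampus KCl (52.7 ± 0.332 CPM) through hippocampus vehicle (47.2 ± 1.48) and cortex vehicle (11.97 ± 0.979) to cortex KCl (11.3 ± 0.881), and its cortex groups overlapped. Neurod6 ran from cortex KCl (94.6 ± 7.83) and cortex vehicle (93.7 ± 6.20) to hippocampus KCl (81.7 ± 1.18) and hippocampus vehicle (81.7 ± 6.90), with overlap between treatments within each region and none between cortex vehicle and hippocampus KCl. The regions still overlapped. Hippocampus vehicle replicate 3, at 87.1 CPM, lay above cortex vehicle replicate 3 (86.6) and cortex KCl replicate 1 (85.8). For Neurog2 all 4 pallial neighbours in the order overlapped, from hippocampus vehicle (0.823 ± 0.203) to cortex KCl (0.576 ± 0.0747). The 2 striatum groups were neighbours at the bottom for every gene and overlapped.

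The genes whose profile over the 19 libraries was most like each member were ranked among 16733 genes by Pearson r, a description in which the libraries of a region form clusters. Pearson r takes no account of the size of a difference, so a like gene can still be well read in striatum. For Neurod1 they were Slc17a6 (r = 0.998), Clstn2, Homer3, Hapln1 and S1pr3. Slc17a6, a vesicular glutamate transporter, was at 20.3 CPM in cortex, 82.3 in hippocampus and 0.308 in striatum, the same order as Neurod1. Bhlhe22 was nearest to Zbtb18 (r = 0.997), a repressor of pallial neurons, followed by Jam2, Dyrk2, Ppp1r14c and Rab31. Neurod6 was nearest to Gnai1 (r = 0.997), with Apoe, Chl1 and Nr2f1 among the next, and Neurod2 to Ppp2r5a (r = 0.9903), with Nr2f1, Wdr47 and Prdm8 among the next. Nr2f1, a nuclear receptor that patterns the neocortex, was on both lists. Neurog2 was nearest to Vash1 (r = 0.969), Shank3, Diras2, Nlgn3 and Prodh2, and Nhlh1 to Mgp (r = 0.987), St18, Col6a1, Cldn16 and Mamdc2. Of the nearest genes in striatum, Gnai1 was at 74.7 CPM, Vash1 at 42.3, Ppp2r5a at 33.5, Zbtb18 at 10.2 and Mgp at 0. Among the members themselves, Neurod6 and Bhlhe22 had r = 0.979, Neurod2 and Neurod6 0.976, Neurod1 and Nhlh1 0.968, and Neurod2 and Nhlh1 0.416.

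Other genes of the pathway were described by counts with the same test, by which 25.8% of all genes were higher in pallium and 27.1% higher in striatum. Of 18 measured genes of the glutamatergic pallial lineage, 12 were higher in pallium, 1 was higher in striatum (Cux1) and 5 did not pass. Slc17a7, a vesicular glutamate transporter, was at 210 CPM in cortex, 559 in hippocampus and 0.230 in striatum. Fezf2, which specifies deep-layer neurons, was at 40.0, 24.7 and 0.00986. Emx1, a pallial homeobox gene, was at 15.7, 13.8 and 0.0123 CPM. The median log2 difference of the list was 2.29, against -0.01 over all 13993 genes tested with limma. Pax6 and Nfix were not analysed here.

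Of 9 measured proneural and related bHLH genes, 3 were higher in pallium (Nhlh2, Olig1 and Olig2), 1 was higher in striatum (Atoh1, with 2, 1 and 8 reads in cortex, hippocampus and striatum) and 5 did not pass. Over all genes 25.8% were higher in pallium and 27.1% higher in striatum, so these counts do not set the list apart. Nhlh2, the closest relative of Nhlh1, had 226 cortical, 2771 hippocampal and 0 striatal reads, with hippocampus above cortex as for Nhlh1. The median log2 difference over the 7 genes of this list with enough reads for limma was 1.39, and Neurog3, Olig3 and Ptf1a were not analysed here.

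The E proteins, which dimerize with the 6 factors, differed in direction. Tcf4 was higher in pallium, at 683, 650 and 268 CPM in cortex, hippocampus and striatum. Tcf12 was higher in striatum, at 114, 111 and 128 CPM, and Tcf3 did not pass, at 35.7, 35.6 and 35.9 CPM. Of the Id genes, whose products block bHLH dimers, Id1, Id2 and Id3 were higher in pallium and Id4 was higher in striatum (13.1, 21.8 and 38.2 CPM). Of 6 Hes and Hey repressors, Hes1, Hes6 and Hey1 were higher in pallium and 3 did not pass. Beside these short lists, 25.8% of all genes were higher in pallium and 27.1% higher in striatum. Of 22 measured subpallial and striatal genes, 20 were higher in striatum and 2 did not pass (Gsx1 and Tac1). Gad2, which makes GABA, was at 127, 150 and 1532 CPM, and Ppp1r1b, a signalling protein of medium spiny neurons, at 5.04, 4.18 and 115. The striatal list had a median log2 difference of -3.35.

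Markers of other cell types also differed between the regions, where 25.8% of all genes were higher in pallium by the same test. The summed level of 7 measured astrocyte markers ran from 1172 to 1374 CPM over cortex libraries, from 1975 to 2110 in hippocampus and from 324 to 355 in striatum, and 6 of the 7 were higher in pallium. The 8 oligodendrocyte lineage markers summed to 493.5 to 539, 406 to 501 and 180 to 218 CPM, with 5 higher in pallium (Olig1, Olig2, Sox10, Pdgfra and Cspg4) and 3 not passing, Mbp and Mog among them. The 4 markers of cycling cells were all higher in pallium, with sums of 110 to 121, 104 to 117 and 72.5 to 89.8 CPM. The 3 measured endothelial markers summed to 0.3999 to 0.711, 6.26 to 8.15 and 0.0369 to 0.434 CPM (Flt1 and Kdr higher in pallium, Cldn5 at 0 to 0.0119 on average). The 5 microglia markers summed to under 1 CPM in every library, with Aif1 read once in all. The part of these cell types in the levels of the 6 genes was not tested.

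**Figure D2:**
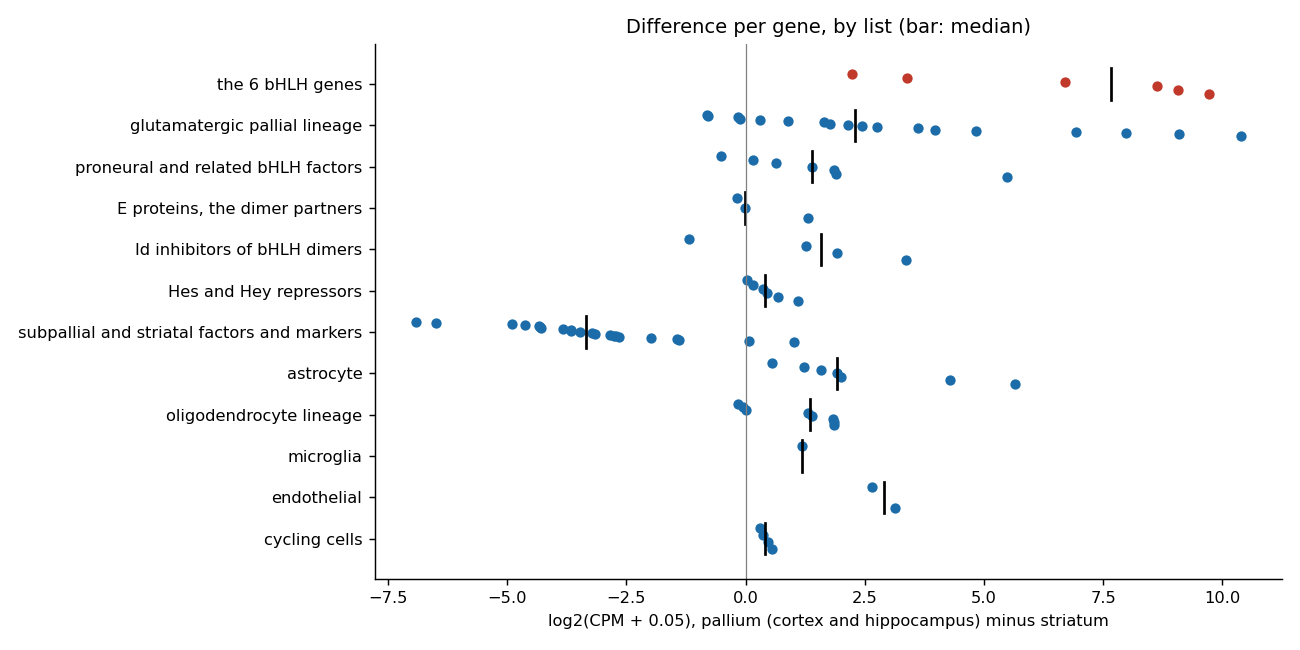
Difference between pallial and striatal cultures for each gene, on the log2(CPM + 0.05) scale from limma, by list, with 1 point per gene and a bar at the list's median. The 6 bHLH genes all lie to the right of 0, the pallial lineage list has a median of 2.29 and the subpallial list of -3.35.

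Enhancer RNA around the 6 genes was scarce. The median TAPE within 1 Mb held 15.5 reads summed over 19 libraries (14 over all TAPEs). TAPE values are CPKM, the study's name for reads per kilobase of TAPE per 1 M library reads, and 10 of the 208 TAPEs had a mean of at least 0.05 CPKM and were tested, 3 around Bhlhe22, 5 around Neurod2 and 2 around Neurog2. None of the 30 TAPEs of Neurod1, the 51 of Neurod6 or the 22 of Nhlh1 reached that level. By limma on log2(CPKM + 0.05), adjusted over all 1870 tested TAPEs, 5 of the 10 differed between pallium and striatum, 3 higher in pallium (19.4% of all tested TAPEs were) and 2 higher in striatum (24% of all). The same number passed in cortex against striatum (5 of 10, against 33.3% of all) and in hippocampus against striatum (5 of 10, against 43%). Centring each library on its median TAPE moved the median log2 difference over all TAPEs from -0.17 to -0.02 in hippocampus against striatum, and the calls there from 316 higher and 488 lower to 396 and 356. In pallium against striatum it moved the calls from 363 higher and 449 lower to 421 and 387. In cortex against hippocampus it moved them from 168 and 110 to 128 and 145. All 5 pallial calls held under centring and without any single library, including cortex vehicle replicate 3. The filter is a mean over all 19 libraries, so a TAPE can pass it only through the regions where it is high. Among the calls, the TAPEs 4572 bp upstream and 694927 bp downstream of Bhlhe22 averaged under 0.05 CPKM in striatum. The one 17950 bp upstream of Neurod2 averaged under 0.05 CPKM in cortex and hippocampus. The other called TAPEs averaged above it in every region.

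The TAPE closest to Bhlhe22, centred 4572 bp upstream of its start (Rn6 chromosome 2, 102680053 to 102681830), followed the gene. It had 9 to 35 reads per cortex library, 12 to 32 per hippocampus library and 0 to 2 per striatum library, where 4 of 7 had none. Its level was 0.233 ± 0.0817 CPKM in cortex (SD, n = 6), 0.225 ± 0.0655 in hippocampus (n = 6) and 0.00725 ± 0.00959 in striatum (n = 7). Striatum did not overlap with either pallial region, and the log2 difference was 2.25 (SE 0.20, limma adjusted p = 7.42e-11). The deposited global r with Bhlhe22 over 19 libraries was 0.884, the highest of the 4 genes paired with this TAPE. Within a single region r stood near 0 (cortex 0.00155, hippocampus -0.0934, striatum 0.0507).

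A further TAPE (Rn6 chromosome 2, 103378784 to 103382095), 694927 bp downstream of the Bhlhe22 start, had the same pattern. It had 12 to 20 reads per library in cortex, 8 to 29 in hippocampus and 0 to 2 in striatum, with levels of 0.0743 ± 0.0171, 0.0833 ± 0.0407 and 0.00314 ± 0.00538 CPKM. The log2 difference of pallium to striatum was 1.25 (SE 0.17, limma adjusted p = 5.94e-07). Bhlhe22 had the highest global r of its 6 paired genes (0.816), although the nearest gene was Cyp7b1, 509183 bp away (r = 0.734). Within cortex, hippocampus and striatum, r with Bhlhe22 was -0.465, -0.719 and 0.131. The other tested TAPE of Bhlhe22, 383167 bp upstream (Rn6 chromosome 2, 102301454 to 102303239), went the other way. It had 13 to 30 reads in cortex, 7 to 14 in hippocampus and 30 to 59 in striatum, with levels of 0.180 ± 0.0645, 0.106 ± 0.0356 and 0.443 ± 0.0847 CPKM and a log2 difference of -1.40 (SE 0.17, limma adjusted p = 5.18e-08). Its r with Bhlhe22 was -0.926, the lowest of its 4 genes, and its nearest gene was the microRNA gene Mir124-2 at 9257 bp (r = 0.851).

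The neighbourhood of Neurod2 held both patterns. The TAPE 17950 bp upstream of its start (Rn6 chromosome 10, 86299901 to 86301386) lies 3084 bp from the start of Ppp1r1b, the medium spiny neuron gene named above. It had 2 to 6 reads per cortex library, 0 to 7 per hippocampus library and 18 to 35 per striatum library, so that no pallial library reached a striatal one. The level was 0.0459 ± 0.0139 CPKM in cortex, 0.0373 ± 0.0325 in hippocampus and 0.289 ± 0.0684 in striatum (log2 difference -1.91, SE 0.19, limma adjusted p = 1.38e-09). Of its 58 paired genes Neurod2 had the lowest global r (-0.915) and Ppp1r1b the highest (0.942).

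The TAPE closest to Neurod2, 5670 bp upstream (Rn6 chromosome 10, 86286983 to 86289742), had a mean of 0.0495 CPKM, just under the filter. It had 2 to 23 reads in cortex, 5 to 16 in hippocampus and 0 to 4 in striatum, so striatum was lowest here, whereas it was highest at the TAPE 17950 bp upstream. Its r with Neurod2 was 0.682, the second highest of 59 genes after Epop (0.790, 713474 bp away). Within cortex, hippocampus and striatum this TAPE had an r of 0.0495, -0.853 and 0.293. With no filter on low TAPEs, its log2 difference was 0.77 (SE 0.20, limma adjusted p = 0.0101). By the same unfiltered fit, and chosen after its values were seen, a TAPE 6857 bp downstream of the Neurod2 start had 40 cortical, 18 hippocampal and 0 striatal reads (adjusted p = 0.000312), and one 15180 bp upstream had 15, 8 and 65 (log2 difference -1.09, adjusted p = 8.97e-05). The other 4 tested TAPEs of Neurod2 lay 419042 to 687930 bp away, had global r between -0.219 and 0.0736, and did not differ between pallium and striatum (limma adjusted p = 0.446 to 0.806). One of these, 419042 bp upstream (Rn6 chromosome 10, 86700371 to 86703098), was higher in cortex than hippocampus, at 0.117 ± 0.0418 and 0.0504 ± 0.0161 CPKM (log2 difference 0.72, SE 0.21, limma adjusted p = 0.0192). It was the 1 of 10 called in that comparison, where 14.9% of all tested TAPEs were, and the call was lost without cortex KCl replicate 2, the highest library at 0.197 CPKM, and without hippocampus KCl replicate 3.

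Around Neurog2, the tested TAPE 242789 bp upstream (Rn6 chromosome 2, 231718514 to 231720942) held 586 reads in all, the most of the 10 tested TAPEs. It had 38 to 68 reads per cortex library, 24 to 37 per hippocampus library and 5 to 23 per striatum library. The level stepped down from 0.323 ± 0.0622 CPKM in cortex to 0.213 ± 0.0405 in hippocampus and 0.123 ± 0.0449 in striatum, with striatum below every pallial library (log2 difference 0.90, SE 0.17, limma adjusted p = 7.91e-05). Neurog2 had rank 3 of its 9 genes by global r (0.571), behind Alpk1 (0.740) and Ank2 (0.689), the nearest gene at 71606 bp. Within cortex, hippocampus and striatum, r with Neurog2 was -0.236, -0.291 and 0.633. The other tested TAPE, 228759 bp upstream (Rn6 chromosome 2, 231732956 to 231734560), was at 0.151 ± 0.0750, 0.0937 ± 0.0546 and 0.178 ± 0.0940 CPKM and did not pass (limma adjusted p = 0.167). The TAPE closest to Neurog2, 5785 bp downstream (Rn6 chromosome 2, 231967491 to 231969113), was under the filter but had 38 cortical, 41 hippocampal and 0 striatal reads. Its r with Neurog2 was 0.713, the second highest of 8 genes, and 0.502 within cortex and -0.0719 within hippocampus.

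**Figure D3:**
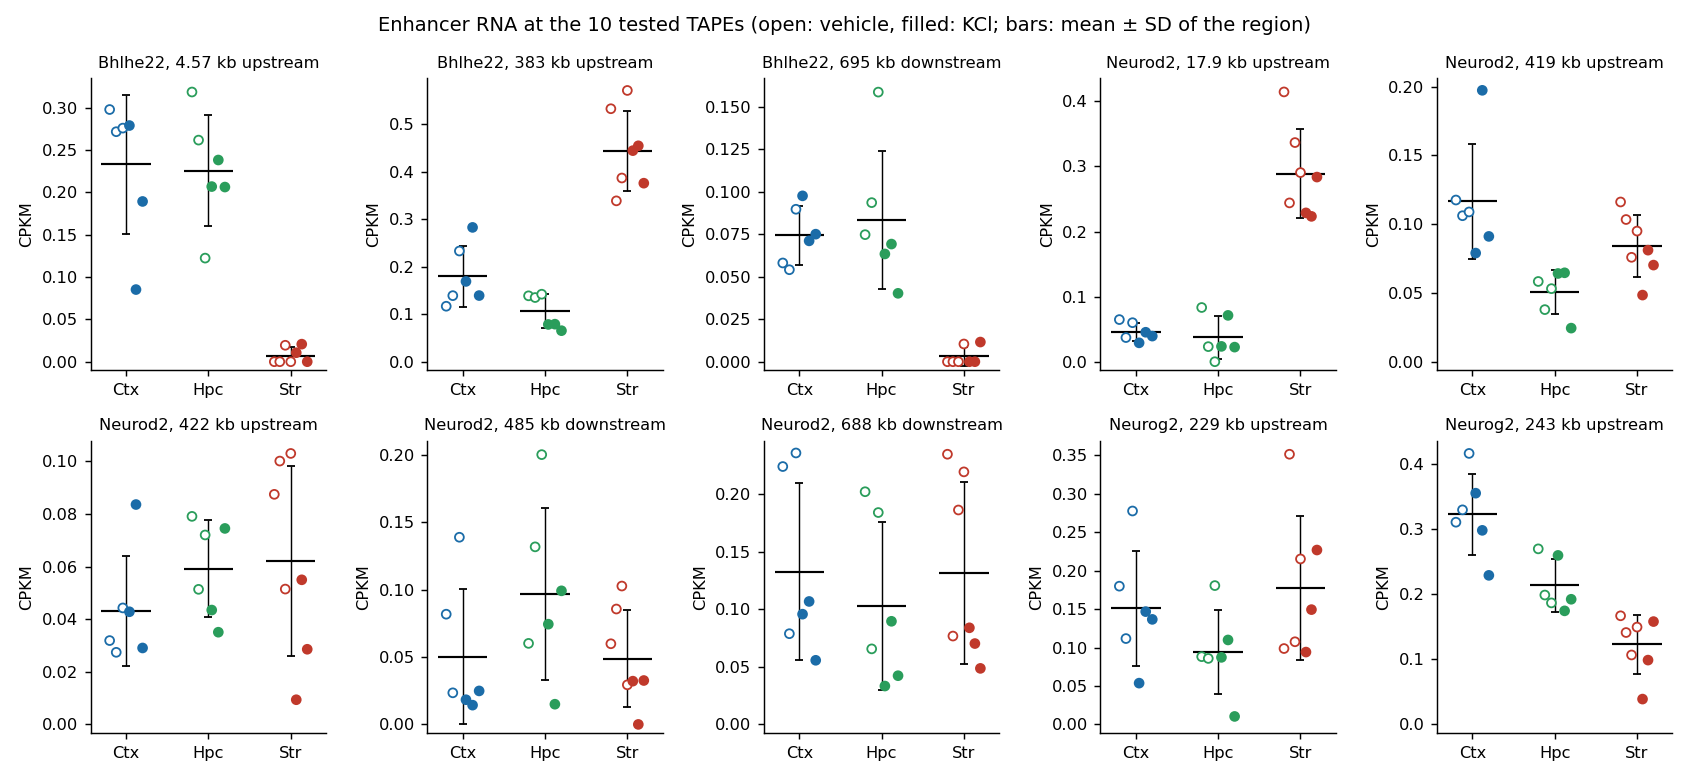
CPKM (linear axis) of the 10 tested TAPEs in each library, by region (Ctx cortex, Hpc hippocampus, Str striatum), titled by gene and distance from its start, with open points for vehicle, filled points for KCl and bars for the mean ± SD of the region. Striatum lies below all pallial libraries for the TAPEs 4572 bp upstream and 694927 bp downstream of Bhlhe22 and above them 383167 bp upstream of Bhlhe22 and 17950 bp upstream of Neurod2.

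The 3 genes with no tested TAPE still had reads nearby. For Neurod1, the best correlated TAPE lay 18834 bp downstream of its start (Rn6 chromosome 3, 66397547 to 66400266) and had 11 reads in cortex, 43 in hippocampus and 0 in striatum, the order of the gene itself, with r = 0.745. The closest TAPE, 3036 bp upstream (66420165 to 66421390), had 4, 8 and 0 reads and r = 0.489. For both, Itga4 had a higher r. Within cortex and hippocampus, r with Neurod1 was -0.0535 and -0.284 at the best correlated TAPE and -0.665 and 0.0276 at the closest. For Neurod6, the closest TAPE, 12687 bp downstream (Rn6 chromosome 4, 85901764 to 85903061), had 49, 16 and 9 reads (r = 0.564), and the best correlated, 46983 bp downstream (85867218 to 85869015), had 27, 8 and 0 (r = 0.665). Both had their highest r with Pde1c. Within cortex, hippocampus and striatum, r of the closest TAPE with Neurod6 was -0.490, -0.734 and -0.553. For the best correlated it was 0.180 in cortex and 0.443 in hippocampus. For Nhlh1, the closest TAPE (Rn6 chromosome 13, 90445900 to 90447235, 3411 bp upstream) had 2 reads in each region and r = 0.0135, and the best correlated (90326536 to 90327693, 116043 bp downstream) had 1, 2 and 0 reads, so its r of 0.343 rests on 3 reads.

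With no filter, the 208 TAPEs gave 20 calls in pallium against striatum by limma, 11 higher in pallium (2.41% of all 27538 TAPEs were) and 9 higher in striatum (3.91% of all). By gene the higher and lower calls were 1 and 0 for Neurod1, 2 and 5 for Neurod2, 3 and 0 for Neurod6, 2 and 2 for Neurog2, 3 and 1 for Bhlhe22 and 0 and 1 for Nhlh1. A higher mean CPKM in pallium than in striatum was seen for 140 of the 208 (67.3%), against 54.3% of all TAPEs. Per 100 M library reads, the TAPEs of Neurod6 summed to 201 reads in cortex, 107 in hippocampus and 88.0 in striatum. Those of Neurod1 summed to 34.3, 54.4 and 16.2, so that cortex led around Neurod6 and hippocampus around Neurod1. The TAPEs of Neurod2 summed to 180, 145 and 209, with striatum highest. Cortex was highest around Neurog2 (146, 111 and 82.0), Bhlhe22 (192, 169 and 126) and Nhlh1 (52.6, 32.6 and 27.5).

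A deposited global r above 0.5, which the study takes as a predicted pair, was found for 19 of the 208 pairs (9.13%), against 5.30% of all pairs. It was found in 6 pairs of Bhlhe22, 5 of Neurod6, 4 of Neurod1, 2 of Neurod2, 2 of Neurog2 and 0 of Nhlh1. Pairs under 100 kb held 8 of the 19, out of 31 pairs (25.8%, against 7.60% of all pairs at that distance), while 5 of 89 lay between 100 and 500 kb (5.62%, against 5.28%) and 6 of 88 beyond (6.82%, against 4.92%). An r below -0.5 was found for 11 pairs (5.29%, against 2.68% of all pairs), 5 of them with Neurod2. A TAPE's highest r was with the member gene for 15 of 49 TAPEs of Bhlhe22, 3 of 30 of Neurod1, 1 of 51 of Neurod6 and none of the others, which is 9.13% of the 208 pairs, against 7.10% of all pairs. A TAPE has a highest r with some gene whatever the values, so these shares depend on how many genes are paired with it. Tested TAPEs of Bhlhe22 had 4 to 6 paired genes and those of Neurod2 had 55 to 58, so no result about the members is drawn from the shares. These r values share libraries and the contrast between regions and are given as a description.

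**Figure D4:**
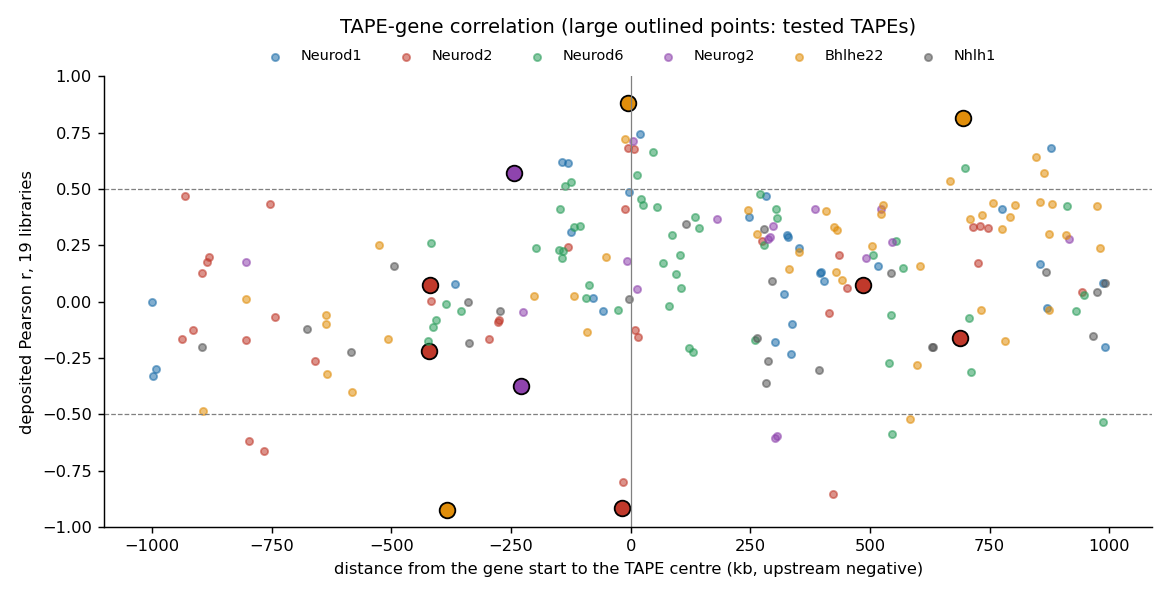
Deposited Pearson r over 19 libraries between each of the 208 TAPEs and its gene, against the distance in kb from the gene start to the TAPE centre (negative is upstream on the gene's strand), coloured by gene, with large outlined points for the 10 tested TAPEs and dashed lines at 0.5 and -0.5. The closest TAPE of Bhlhe22 is the highest point at 0.884, and tested TAPEs of Bhlhe22 and Neurod2 lie lowest, at -0.926 and -0.915.

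Depolarization was compared with vehicle for genes and TAPEs. In an exact permutation test within regions, 1 of 6 genes passed, Neurod2, which was higher after KCl (adjusted exact permutation p = 0.0111), where 5.97% of all genes were higher and 14.7% lower. For Bhlhe22 (adjusted exact permutation p = 0.116), Neurod1 (0.213), Nhlh1 (0.572), Neurog2 (0.684) and Neurod6 (0.995) it did not pass. The Neurod2 call held without each library in turn. On the mean effect of the 3 regions, fitted after the data had been seen, Neurod2 passed by limma (adjusted p = 0.0343) but not by limma voom (adjusted p = 0.189). By the same permutation test 4 genes of the glutamatergic pallial list were higher after KCl and 3 lower, and 9 of the subpallial list were higher and 3 lower.

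The rise of Neurod2 was clearest in cortex. The 3 vehicle libraries were at 38.8, 38.2 and 34.4 CPM and the 3 KCl libraries at 51.2, 45.6 and 48.7, without overlap. This was a log2 rise of 0.39 (SE 0.07, limma adjusted p = 0.00875), where 3.62% of 13993 genes were higher after KCl. In hippocampus Neurod2 was at 35.7, 34.6 and 31.5 CPM with vehicle and at 36.2, 38.1 and 40.2 with KCl, again without overlap (log2 change 0.17, SE 0.06, limma adjusted p = 0.127). In striatum it was at 0.229, 0.443, 0.207 and 0.380 CPM with vehicle and at 0.321, 0.350 and 0.441 with KCl, which overlapped (log2 change 0.25, SE 0.29, limma adjusted p = 0.595).

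In hippocampus, 2 of 6 genes passed, Bhlhe22 and Neurod1, where 3.24% of all genes were higher after KCl. Bhlhe22 was at 227, 211 and 220 CPM with vehicle and at 238, 238 and 255 with KCl (log2 change 0.15, SE 0.04, limma adjusted p = 0.0442). Neurod1 was at 48.8, 46.7 and 45.9 with vehicle and at 52.9, 52.3 and 52.9 with KCl (log2 change 0.16, SE 0.04, limma adjusted p = 0.0475). The groups did not overlap for either gene, but neither call held without hippocampus vehicle replicate 2 or 3 or without KCl replicate 1, 2 or 3, each in turn (limma adjusted p = 0.0788 to 0.168). In striatum 0 of 6 passed, where 6.14% of all genes were higher. Neurod6 was at 0.106, 0.0604, 0 and 0 CPM with vehicle and 0.0566, 0.129 and 0.115 with KCl there, from 9 and 16 reads (log2 change 0.86, SE 0.46, limma adjusted p = 0.237). The KCl effect differed between regions for 0 of 6 genes by the limma interaction test (3.28% of all genes), including Neurod2 (limma adjusted p = 0.903), so a difference between cortex and the other regions was not shown.

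**Figure D5:**
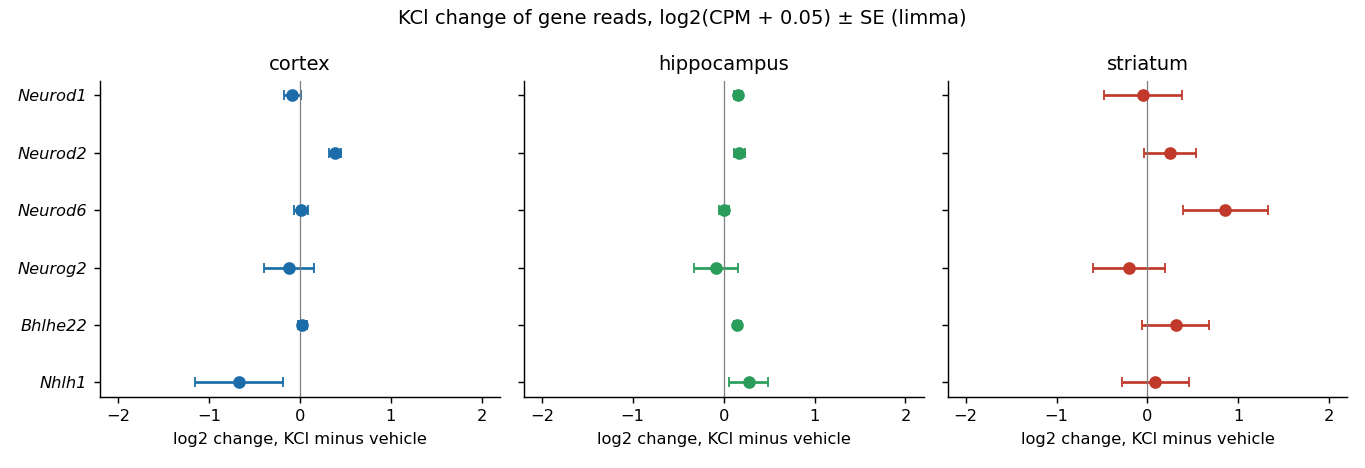
Log2 change of gene reads after KCl on the log2(CPM + 0.05) scale, with the SE from limma, for the 6 genes in each region. Neurod2 in cortex stands at 0.39, the precise estimates of Bhlhe22 and Neurod1 in hippocampus lie at 0.15 and 0.16, and striatum values have wide errors.

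Of the 10 tested TAPEs, 0 passed for KCl in cortex (0.321% of all tested TAPEs did), in hippocampus (0.0535%), in striatum (1.23%) or for a KCl effect that differed between regions (0.0535%), all by limma, and 0 passed with voom. An unadjusted limma p under 0.05 was seen for 1 of the 10 in cortex, 2 in hippocampus, 3 in striatum and 0 for the difference between regions, against 195, 249, 282 and 154 of all 1870. The 2 TAPEs with the smallest p in cortex were both downstream of Neurod2. The one at 485249 bp (Rn6 chromosome 10, 85796856 to 85798032) had a log2 change of -0.82 in cortex (SE 0.36, limma adjusted p = 0.447) and the one at 687930 bp (85593977 to 85595550) of -0.69 (SE 0.35, limma adjusted p = 0.505). The latter was also among the smallest p in hippocampus (-0.89, SE 0.38, limma adjusted p = 0.372) and striatum (-0.91, SE 0.32, limma adjusted p = 0.198). In hippocampus the other was the TAPE 383167 bp upstream of Bhlhe22 (-0.60, SE 0.24, limma adjusted p = 0.360), with 14 reads in each vehicle library and 7 or 8 in each KCl library. In striatum it was the TAPE 421663 bp upstream of Neurod2 (Rn6 chromosome 10, 86703350 to 86705361; log2 change -0.76, SE 0.32, limma adjusted p = 0.287). The TAPE 4572 bp upstream of Bhlhe22 had a log2 change of -0.59 in cortex (SE 0.30, limma adjusted p = 0.507) and of -0.02 in hippocampus (SE 0.29). Over all 1870 TAPEs, the median log2 change with KCl was -0.09 (cortex), -0.16 (hippocampus) and -0.17 (striatum).

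The mean KCl effect over the 3 regions was fitted after the data had been seen, and called 2 of the 10 TAPEs, both lower after KCl, where 5.13% of all tested TAPEs were lower. They were the 2 TAPEs downstream of Neurod2 named for cortex. The one at 687930 bp had a mean log2 change of -0.83 (SE 0.20, limma adjusted p = 0.0107). It had 22, 9 and 25 reads with vehicle and 7, 10 and 6 with KCl in cortex, 18, 6 and 16 against 3, 8 and 4 in hippocampus, and 21, 6, 17 and 20 against 7, 6 and 4 in striatum. The ranges of reads overlapped in every region. The one at 485249 bp had a mean log2 change of -0.75 (SE 0.22, limma adjusted p = 0.0317) from 84 reads in all. The count of 2 was 1 with voom, 1 with centred libraries and 0 with no filter, and was 1 without cortex vehicle replicate 3, cortex KCl replicate 2, hippocampus vehicle replicate 2 or 3, hippocampus KCl replicate 2, striatum vehicle replicate 6 or striatum KCl replicate 5. Neurod2 mRNA itself rose after KCl, as given above, while their r with Neurod2 over 19 libraries was -0.160 and 0.0723. Within cortex, hippocampus and striatum r was -0.708, -0.589 and -0.652 for the TAPE at 687930 bp. For the one at 485249 bp it was -0.760, -0.704 and -0.356. Both TAPEs were picked for a fall with KCl, so an r below 0 within regions with a rising gene follows in part from that choice. By global r Neurod2 had rank 44 of 55 genes at 687930 bp, where the nearest gene was Mllt6 (13781 bp away). It had rank 26 of 58 at 485249 bp, where the nearest was Fbxo47 (28291 bp away). A link of these TAPEs with Neurod2 was not tested.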

How the data were processed

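Directional total RNA-seq of 19 libraries was processed by the authors. Reads were trimmed (Trim Galore 0.4.5), aligned to Rn6 and counted per TAPE and gene. The TAPE values deposited by the authors are RPKM-type values (named CPKM). The deposited correlations, a score between -1 and 1 for each TAPE-gene pair, are Pearson r over all libraries and within each region. Library totals were 46.4 to 72.5 M reads, found from the steps of the TAPE values, all of which came out as whole reads. These totals are higher than the read numbers in the study's methods, for which the cause was not tested. Depth limits TAPEs most, since their median held 14 reads.

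No gene value per library was used directly. Each gene's profile was solved from its correlations, and whole reads were then searched for with a tolerance of 0.05 read. This worked for 16733 of 17715 genes. Of the rest, 914 had too few TAPEs, and 68 were listed at several positions and were not solved. Library totals were taken from the TAPEs. For Nhlh1, 16 of 19 counts were even.

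Genes were compared by an exact permutation test of their standardised profiles (KCl within regions). TAPEs with a mean of at least 0.05 CPKM were compared with limma 3.58.1 (R 4.3.3) on log2(CPKM + 0.05), with Benjamini-Hochberg adjustment over all features and a threshold of 0.05. A fold on this scale understates changes of low TAPEs. limma and voom on the recovered gene reads, at a pseudocount of 0.05 CPM, and the KCl effect averaged over regions were added after the data had been seen. Exact 95% intervals of read ratios cover counting error only. The steps were tested on simulated data. Python 3.11.15, numpy 2.4.6, pandas 2.3.3, scipy 1.17.1, numba 0.67.0 and matplotlib 3.10.9 were used.

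Members and lists were chosen with earlier results of these data known. The TAPEs named were those tested, the closest and best correlated of each gene, those called, and the 2 of smallest p for KCl in each region, and up to 5 like genes were named per member. Some genes that these rules select are not reported here. Replicate numbers showed no pairing of the libraries over 1870 TAPEs (correlations of deviations from -0.0418 to 0.0142). TAPEs hold few reads per library, so these values cannot exclude a pairing.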

Additional observations from a re-analysis of the deposited data

Results flagged for a closer look

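In each region of 6 or 7 libraries, levels of the 6 genes and 10 tested TAPEs were searched for a library far from the rest (Dixon's test at the 95% level, 48 groups, of which chance gives about 1 in 20). Neurog2 in cortex had a highest library, vehicle replicate 2, at 0.910 CPM, against 0.496 to 0.643 in the other 5. The Neurod2 TAPE 419042 bp upstream had a highest cortex library, KCl replicate 2, at 0.197 CPKM, against 0.0790 to 0.118. The Neurod2 TAPE 421663 bp upstream was highest in the same library, at 0.0836 CPKM, against 0.0274 to 0.0443. These 2 TAPEs lie next to each other, and the cause was not tested.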

How the results depend on the processing

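The 5 TAPEs that differed between pallium and striatum kept their direction and call under every alternative that retained them. The number called was 20 with no filter in pallium against striatum, 18 in cortex against striatum and 12 in hippocampus against striatum, where 208 TAPEs and not 10 were tested. Without each replicate in turn these counts were 5 to 5, 5 to 5 and 5 to 6. The 1 call in cortex against hippocampus became 0 with a mean of at least 0.1 CPKM, 0 with centred libraries and 0 in vehicle libraries only, and 0 to 2 without each replicate, with 2 without cortex vehicle replicate 1. The mean KCl effect called 2 TAPEs, 0 with no filter, 1 at 0.1 CPKM, 1 centred, 1 with voom and 1 to 2 without each replicate. Some uncalled Neurod2 TAPEs changed sign in pallium against striatum. The one 419042 bp upstream was 0.027 when centred and 0.14 in KCl libraries only, the one 421663 bp upstream was 0.34 in KCl libraries only, and the one 687930 bp downstream was 0.0065 in KCl libraries only and -0.24 to 0.00995 without each replicate (0.00995 without striatum vehicle replicate 2).

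For genes, 6 calls in pallium against striatum were 5 to 6 without each replicate and 5 in vehicle libraries only, where Nhlh1 had an adjusted exact permutation p of 0.0884. The 1 KCl call was 0 with voom. The 2 limma KCl calls in hippocampus were 0 to 2 without each replicate. With the replicate block they were 0 (adjusted p = 0.107 for Bhlhe22 and 0.144 for Neurod1). The replicate block gave 1 gene for KCl in cortex, 0 TAPEs for KCl in cortex and hippocampus and 1 TAPE in cortex against hippocampus. Whether the replicate numbers pair the libraries was not settled. The cause of these changes was not tested.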
